A study of Homo sapiens with 6 samples.

Results

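Genes of the Hippo pathway and targets of its coactivators YAP and TAZ were compared between 2 subclones of DLD-1, a human colorectal cancer cell line. The set was a list of 33 gene symbols, 14 for pathway components and 19 for genes of a YAP/TEAD target signature. Of these, 32 had a probe set annotated to that symbol alone, among 19775 genes tested. The probe set of NUAK2, a target that encodes a kinase, is annotated to more than 1 symbol, so NUAK2 is not reported. Where a gene had several probe sets, that with the highest mean over the 6 arrays was read. The subclones are labelled DLD-1Δα-Cat (3 arrays) and DLD-1α-Cat (3 arrays), and the labels do not spell out what Δα-Cat stands for. Both were cultured for 96 h inside type I collagen at 1 mg/ml and received no treatment. The labels call each sample a subclone of DLD-1 and name neither separate clones nor separate cultures. The p-values therefore cover only the spread among these arrays, which may be technical. Differences between clones of a line and the labelled difference cannot be told apart here, and neither can fewer cells with an RNA and less of it per cell.

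The Hippo pathway is a kinase cascade that restrains growth. The kinases MST1 and MST2 (genes STK4 and STK3), with the scaffold SAV1, activate LATS1 and LATS2, which phosphorylate the coactivators YAP (YAP1) and TAZ (WWTR1) and keep them out of the nucleus. Unphosphorylated YAP and TAZ enter the nucleus and bind the DNA-binding factors TEAD1 to TEAD4 at their target genes. Proteins at cell junctions, among them merlin (NF2), KIBRA (WWC1), the angiomotins and αE-catenin, act upstream, and αE-catenin is known to hold back YAP in mouse epidermis. Much of the pathway is regulated by phosphorylation and location of proteins, which RNA arrays do not measure.

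TEAD factors are known to bind the letters GGAATG, or CATTCC on the other strand. These letters were searched on both strands in the 250 bases before each gene's annotated start in the RefSeq promoter table (GRCh38.p14). Of 35116 promoters in that table, 11.9% held the motif. Promoters of 14 target genes matched by symbol, and 7 of the 14 genes held it: CCN2 (3 times), ANKRD1 (2 times), NUAK2 (2 times), AMOTL2, FOXF2, PTPN14 and TGFB2. No promoter matched for CCN1, GADD45A, ASAP1, CRIM1 and DOCK5, so these targets were not searched. Promoters of 11 components matched, and 1 held it, YAP1. Counted by promoter, as the 11.9% is, 7 of 15 target promoters (46.7%) and 1 of 15 component promoters (6.67%) held it. The targets were listed as YAP/TEAD targets beforehand, so their share is not a result of these arrays. A match is a run of letters and not evidence of binding. The promoters shown are those of 3 target genes with the motif and of the paralogous coactivators YAP1 and WWTR1, of which WWTR1 passed the test and YAP1 did not. CCN2 lies at chr6:131951373-131951622, minus strand. ANKRD1 lies at chr10:90921088-90921337, minus strand. AMOTL2 lies at chr3:134374448-134374697, minus strand, YAP1 at chr11:102110197-102110446, plus strand, and WWTR1 at chr3:149658026-149658275, minus strand. Capitals mark the TEAD letters and, in ANKRD1, 1 match to the AP-1 letters TGANTCA (6.57% of all promoters), which does not overlap them. Both RefSeq windows of WWTR1 were without either motif, and so was a further window of AMOTL2.
CCN2: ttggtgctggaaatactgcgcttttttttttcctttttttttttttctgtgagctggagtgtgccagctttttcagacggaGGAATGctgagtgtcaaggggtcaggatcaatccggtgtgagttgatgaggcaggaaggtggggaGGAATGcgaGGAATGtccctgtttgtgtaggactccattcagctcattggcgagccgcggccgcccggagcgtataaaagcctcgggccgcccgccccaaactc
ANKRD1: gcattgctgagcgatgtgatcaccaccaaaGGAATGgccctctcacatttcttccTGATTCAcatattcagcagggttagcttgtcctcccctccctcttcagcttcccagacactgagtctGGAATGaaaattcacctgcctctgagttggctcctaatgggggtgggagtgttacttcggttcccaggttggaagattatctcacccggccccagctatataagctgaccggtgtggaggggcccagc
AMOTL2: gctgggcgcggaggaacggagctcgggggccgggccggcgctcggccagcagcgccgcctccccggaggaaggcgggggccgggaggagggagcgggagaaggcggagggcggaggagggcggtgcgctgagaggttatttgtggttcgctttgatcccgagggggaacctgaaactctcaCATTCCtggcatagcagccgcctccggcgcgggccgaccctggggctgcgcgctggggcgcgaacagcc
YAP1: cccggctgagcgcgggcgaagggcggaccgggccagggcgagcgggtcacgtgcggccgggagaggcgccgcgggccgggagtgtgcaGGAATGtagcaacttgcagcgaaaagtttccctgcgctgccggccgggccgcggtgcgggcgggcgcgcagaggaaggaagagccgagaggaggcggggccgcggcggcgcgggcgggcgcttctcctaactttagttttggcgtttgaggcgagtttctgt
WWTR1: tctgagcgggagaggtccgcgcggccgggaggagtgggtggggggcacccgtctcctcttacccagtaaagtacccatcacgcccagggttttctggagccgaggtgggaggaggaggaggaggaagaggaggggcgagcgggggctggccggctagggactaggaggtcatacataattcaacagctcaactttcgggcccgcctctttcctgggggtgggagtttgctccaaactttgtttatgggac

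The labels were first checked on CTNNA1, which encodes αE-catenin. Its log2 intensity was 11.38, 11.30 and 11.01 on the DLD-1Δα-Cat arrays, against 12.73, 12.74 and 12.79 on the DLD-1α-Cat arrays, so the RNA was lower but bright in the subclone labelled Δα-Cat. Epithelial markers of colon were bright in both subclones, and 12 of 12 lay above the median of all genes (7.82). All 10 fibroblast, 7 endothelial and 7 measured leukocyte markers lay below it. The mean of the 10 fibroblast markers was 4.57 to 4.64 in DLD-1Δα-Cat, against 4.57 to 4.84 in DLD-1α-Cat. That of the endothelial markers was 5.04 to 5.14 in DLD-1Δα-Cat, against 5.11 to 5.24 in DLD-1α-Cat, and that of the leukocyte markers 4.30 to 4.36 in DLD-1Δα-Cat, against 4.68 to 4.74 in DLD-1α-Cat. The mean of the epithelial markers was 11.97 to 12.23 in DLD-1Δα-Cat, against 11.59 to 11.73 in DLD-1α-Cat. The median difference of these 12 was only 0.0682, with 5 of them below 0, and KRT20, an intestinal keratin, differed by 4.89. Of the marker lists limma called KRT20 higher and CD14, a monocyte receptor, lower (-1.17). Whether these marker levels bear on the results was not tested. A sign of RNA quality, the signal of β-actin's 3' control probe set over its 5' one (as log2), separated the subclones. It was 5.16, 5.38 and 5.07 in DLD-1Δα-Cat, against 4.82, 4.89 and 4.36 in DLD-1α-Cat (exact permutation test, two-sided p = 0.1, the smallest that 3 against 3 arrays allow). The same ratio of another control, GAPDH, was 0.69, 0.82 and 0.74 in DLD-1Δα-Cat, against 0.51, 0.79 and 0.67 in DLD-1α-Cat. These GAPDH values overlapped (difference 0.09, exact permutation test, two-sided p = 0.4), so the GAPDH ratio did not separate the subclones.

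The comparison asked whether RNA of the pathway's components, and of the genes that its coactivators drive, differed between the subclones. One component fell, the coactivator gene WWTR1, and 1 target rose, the stress gene GADD45A. The other 13 components and 17 targets did not pass the test. Differences are log2 values of DLD-1Δα-Cat less those of DLD-1α-Cat, from limma's moderated test with p adjusted by Benjamini-Hochberg over all genes, and a gene was called at an adjusted p under 0.05. By that rule 5.52% of all genes were called, 3.84% higher and 1.67% lower, and the 2 called members make up 6.25% of those measured, a share near the background. For 7 of 32 members the groups' arrays did not overlap (21.9%), against 27.2% of all genes. They were GADD45A, IGFBP3 and TEAD3, which were higher, and WWTR1, TEAD2, TEAD4 and FJX1, which were lower, of which WWTR1 and GADD45A were called. The members are listed by role in the plot of each array, in which WWTR1 has the lowest mean.

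**Figure D1:**
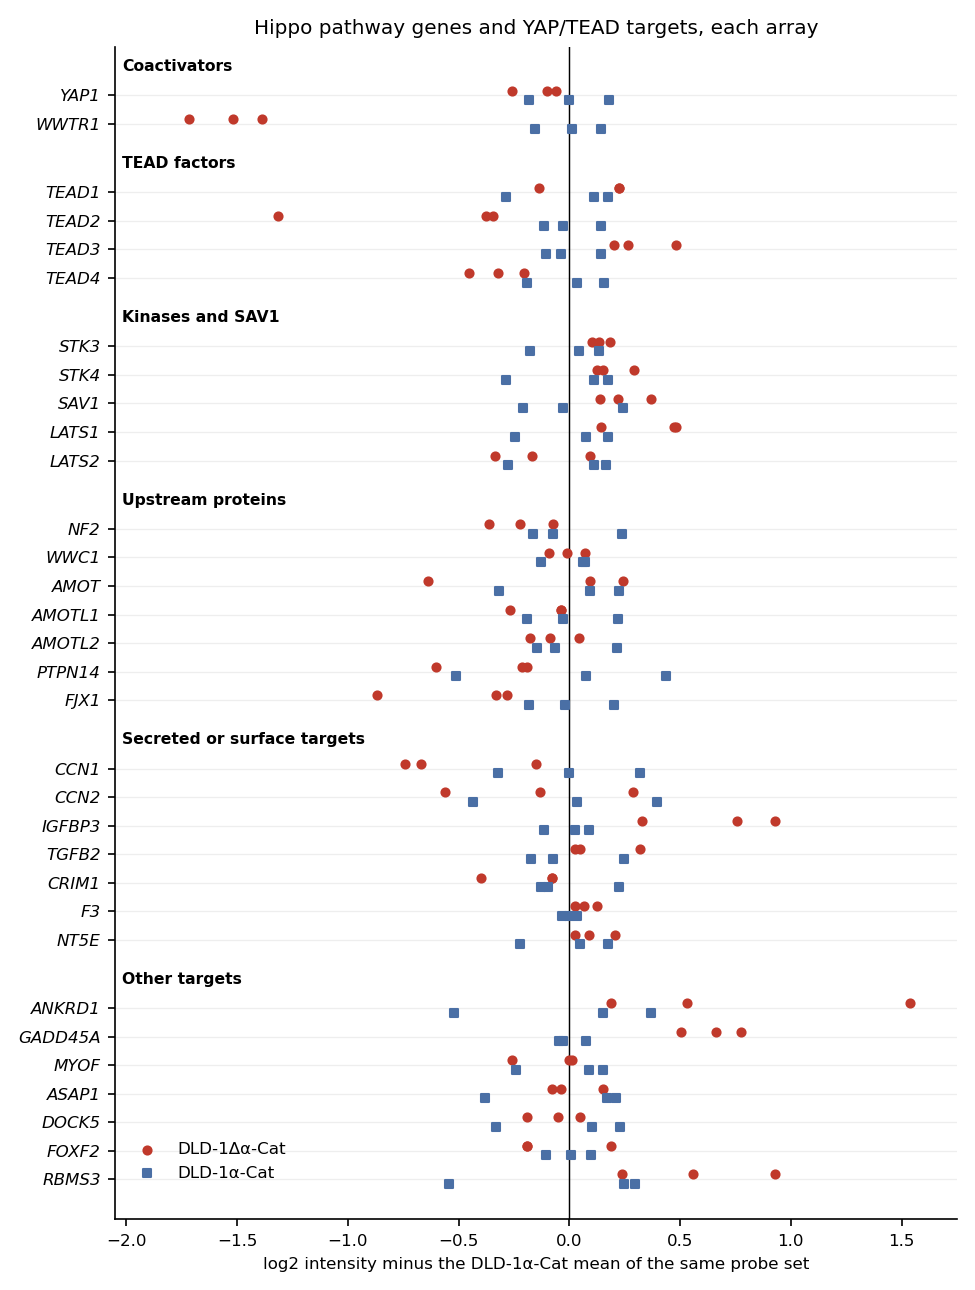
Log2 intensity of the 32 measured members on each array, minus the DLD-1α-Cat mean of the same probe set, grouped by role; circles are the 3 DLD-1Δα-Cat arrays and squares the 3 DLD-1α-Cat arrays. The 3 DLD-1Δα-Cat arrays of WWTR1 lie below every DLD-1α-Cat array of that gene and those of GADD45A lie above, while for most members the circles and squares intermingle.

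WWTR1 encodes TAZ, the paralogue of YAP. Its log2 intensity was 7.19, 6.86 and 7.06 in DLD-1Δα-Cat, against 8.42, 8.59 and 8.72 in DLD-1α-Cat. All 3 DLD-1Δα-Cat arrays thus lay more than a full log2 unit below the lowest DLD-1α-Cat array. The means were 7.04 ± 0.17 in DLD-1Δα-Cat, against 8.58 ± 0.146 in DLD-1α-Cat (SD, n = 3 each), and the difference of -1.54 (SE 0.128, 95% interval -1.84 to -1.24, adjusted p = 0.00104) is a 2.91-fold lower intensity. Both further WWTR1 probe sets were lower as well, by -1.12 (adjusted p = 0.00907) and -1.17 (adjusted p = 0.0381) in a fit of every probe set, in which 3.38% of all probe sets were called. Values of all further probe sets named are from that fit. The mean in DLD-1Δα-Cat was at percentile 59.4 of all probe sets and that in DLD-1α-Cat at percentile 72.3. Leaving out any 1 array kept the call (6 of 6 runs, adjusted p from 0.0024 to 0.00967). With the β-actin ratio as a covariate, a fit that called 0.425% of all genes, the difference was -1.29 and no longer passed (adjusted p = 0.0762). Because the ratio itself separated the subclones, such a fit cannot tell RNA quality from the difference between them.

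YAP1 encodes YAP, the other coactivator. It stood at 11.86, 12.06 and 12.02 in DLD-1Δα-Cat, against 11.94, 12.30 and 12.12 in DLD-1α-Cat, and the groups overlapped. The difference was -0.14 (95% interval -0.43 to 0.15, adjusted p = 0.552), so falls as deep as that of WWTR1 lie outside the interval. Of the 3 YAP1 probe sets none passed, although the second brightest, at 11.66, 11.89 and 11.84 in DLD-1Δα-Cat, against 11.95, 12.29 and 12.29 in DLD-1α-Cat, did not overlap (difference -0.38, adjusted p = 0.202). The log2 ratio of WWTR1 to YAP1 within an array was -4.66, -5.20 and -4.96 in DLD-1Δα-Cat, against -3.51, -3.71 and -3.40 in DLD-1α-Cat. Probe sets differ in brightness for the same RNA, so only the change of this ratio can be read, and it was -1.40. The ratio did not overlap between the subclones, with p = 0.1 by a two-sided exact permutation test, the smallest possible.

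**Figure D2:**
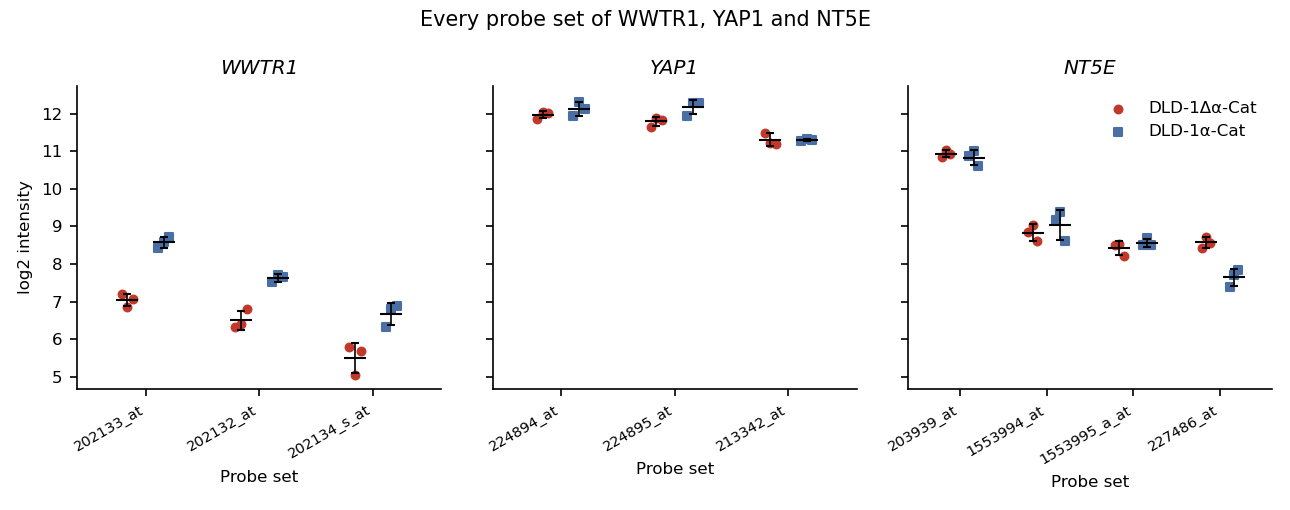
Log2 intensity on each array for every probe set of WWTR1 (3), YAP1 (3) and NT5E (4), with circles for DLD-1Δα-Cat and squares for DLD-1α-Cat; bars are the mean ± SD of 3 arrays. All 3 WWTR1 probe sets are lower in DLD-1Δα-Cat, and the dimmest NT5E probe set, at the far right, is higher there.

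The TEAD factors, which bring YAP and TAZ to DNA, gave no call, and they did not all lie on 1 side. TEAD1 was 10.82, 11.18 and 11.18 in DLD-1Δα-Cat, against 10.67, 11.13 and 11.07 in DLD-1α-Cat, which overlap (difference 0.10, 95% interval -0.28 to 0.48, adjusted p = 0.75). TEAD2 was 9.82, 9.79 and 8.85 in DLD-1Δα-Cat, against 10.05, 10.14 and 10.31 in DLD-1α-Cat. The groups of TEAD2 did not overlap, but the third DLD-1Δα-Cat array carried much of the difference of -0.68 (adjusted p = 0.19), which was -0.36 without it. TEAD3 was 9.24, 9.30 and 9.52 in DLD-1Δα-Cat, against 9.18, 9.00 and 8.93 in DLD-1α-Cat (difference 0.32, adjusted p = 0.19). TEAD4 was 10.10, 9.97 and 10.22 in DLD-1Δα-Cat, against 10.46, 10.23 and 10.58 in DLD-1α-Cat (difference -0.33, adjusted p = 0.196). For TEAD3 and TEAD4 the arrays did not overlap by narrow gaps, in opposite directions. At an unadjusted p under 0.05, TEAD2, TEAD3 and TEAD4 passed limma's test, as did 20.8% of all genes, and adjusted p-values for all 4 factors were above the threshold. The further probe sets of TEAD2 (-0.39, -0.52 and -0.22) and TEAD4 (-0.36) lay on the same side as the brightest. Those of TEAD2 at -0.39 and -0.52, and that of TEAD4, did not overlap, and none was called (limma adjusted p from 0.117 to 0.476). The mean of TEAD2's probe sets differed by -0.45 and fell just short of a call (limma adjusted p = 0.0509).

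The kinase core gave no call either. LATS1, 1 of the kinases that phosphorylate YAP and TAZ, was 10.26, 10.59 and 10.60 in DLD-1Δα-Cat, against 9.87, 10.29 and 10.19 in DLD-1α-Cat. These groups overlap by 1 array, and the difference of 0.37 (95% interval 0.01 to 0.72) had an adjusted p of 0.224. LATS2, both a kinase of the cascade and a known YAP target, was 11.37, 11.54 and 11.80 in DLD-1Δα-Cat, against 11.43, 11.87 and 11.82 in DLD-1α-Cat (difference -0.14, adjusted p = 0.658). A dimmer LATS2 probe set did not overlap, at 8.24, 8.58 and 8.30 in DLD-1Δα-Cat, against 8.75, 9.07 and 9.19 in DLD-1α-Cat, and did not pass (difference -0.63, adjusted p = 0.0754). STK3 (0.14), STK4 (0.19) and the scaffold SAV1 (0.24) lay above 0 with overlapping arrays and adjusted p from 0.369 to 0.496.

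All 7 members grouped here as upstream, among them the listed targets AMOTL2, PTPN14 and FJX1, had differences below 0, as did 55.3% of all genes. Limma called 0 of them, against 5.52% of all genes, and 1 (14.3%) had an unadjusted p under 0.05, against 20.8% of all genes. That 1 was FJX1, the relative of the fly kinase four-jointed, which acts on the cadherins Fat and Dachsous, and also a target. Its values were 8.03, 8.57 and 8.62 in DLD-1Δα-Cat, against 8.72, 8.88 and 9.10 in DLD-1α-Cat, without overlap (difference -0.50, adjusted p = 0.178). The tumour suppressor NF2 differed by -0.22 (adjusted p = 0.4), the phosphatase PTPN14, which binds YAP, by -0.34 (adjusted p = 0.461) and the WW-domain scaffold WWC1 by -0.01 (95% interval -0.25 to 0.23). The angiomotins bind YAP and actin. AMOTL2, itself a target, was bright in both subclones and differed by -0.07 (95% interval -0.36 to 0.22), whereas AMOT (-0.10) and AMOTL1 (-0.12) were dim, below the median of all genes. Further probe sets of PTPN14 (-0.36 and -0.43), NF2 (-0.14), AMOTL1 (-0.25) and WWC1 (-0.38) were lower without overlap, as were 13.1% of all genes. None of them was called (limma adjusted p from 0.223 to 0.503). The other further probe sets of these genes overlapped and lay on both sides of 0. With the β-actin ratio as a covariate NF2, PTPN14, WWC1 and AMOTL1 lay above 0 on their brightest probe sets. In the main fit, 7 of 13 further upstream and junction genes, part of the wider circle below, also lay above 0 (median 0.0223).

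Among the most used reporters of YAP activity, none was called. CCN1, a secreted matrix protein formerly called CYR61, was 9.12, 9.64 and 9.05 in DLD-1Δα-Cat, against 9.47, 10.11 and 9.79 in DLD-1α-Cat. Each DLD-1Δα-Cat array was below its same-numbered DLD-1α-Cat array, yet the groups overlapped, and the difference of -0.52 (95% interval -1.01 to -0.03) had an adjusted p of 0.213. With the replicate number as a block that p was 0.0595, and the second CCN1 probe set differed by -0.61 (adjusted p = 0.199). CCN2, the related connective tissue growth factor, whose promoter is shown above with 3 TEAD motifs, was dim at 6.40, 6.82 and 5.97 in DLD-1Δα-Cat, against 6.10, 6.93 and 6.57 in DLD-1α-Cat. Its difference was -0.14 with a wide 95% interval of -0.76 to 0.49 (adjusted p = 0.799). ANKRD1, a nuclear cofactor with 2 of the motifs, was also dim, at 5.72, 5.38 and 6.73 in DLD-1Δα-Cat, against 4.67, 5.34 and 5.56 in DLD-1α-Cat. Its difference of 0.75 (adjusted p = 0.298) rested largely on the third DLD-1Δα-Cat array and was 0.36 without it. CCN1 and ANKRD1 thus had differences of opposite sign, neither of them called.

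GADD45A, a stress and growth-arrest protein, was the 1 called target. It was 12.42, 12.69 and 12.58 in DLD-1Δα-Cat, against 11.87, 11.99 and 11.89 in DLD-1α-Cat, without overlap and bright in both subclones. The means were 12.56 ± 0.139 in DLD-1Δα-Cat, against 11.92 ± 0.0635 in DLD-1α-Cat (SD, n = 3 each), a rise of 0.65 (SE 0.107, 95% interval 0.40 to 0.90, adjusted p = 0.0169) or 1.57-fold. It rests on a single probe set. Without replicate 2 or 3 of DLD-1Δα-Cat, or replicate 3 of DLD-1α-Cat, its adjusted p was 0.0769, 0.0708 and 0.0741, and with the β-actin ratio as a covariate it was 0.439.

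IGFBP3, a secreted binding protein of insulin-like growth factors, came nearest to a second target call, and is singled out after its values were seen. It was 7.15, 7.58 and 7.75 in DLD-1Δα-Cat, against 6.71, 6.91 and 6.85 in DLD-1α-Cat, without overlap (difference 0.67, 95% interval 0.29 to 1.05, adjusted p = 0.0606). With the replicate number as a block it passed (adjusted p = 0.0412, in a fit that called 7.39% of all genes), as it did without replicate 1 of DLD-1Δα-Cat (0.84, adjusted p = 0.023). Its second probe set was dimmer and differed by -0.00209. NT5E, the surface enzyme CD73 that makes adenosine, differed by 0.11 on its brightest probe set (95% interval -0.19 to 0.40, adjusted p = 0.662). Its dimmest probe set was 8.43, 8.72 and 8.57 in DLD-1Δα-Cat, against 7.40, 7.72 and 7.83 in DLD-1α-Cat, and passed in the fit of every probe set (difference 0.92, SE 0.147, adjusted p = 0.0192). The probe sets of NT5E thus disagree, since the other two differed by -0.15 and -0.21. Which part of the transcript each reads was not analysed here.

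On their brightest probe sets, the remaining targets did not separate the subclones. Tissue factor (F3), the starter of blood coagulation, differed by 0.08 (95% interval -0.13 to 0.28), TGFB2, a transforming growth factor, by 0.13 (-0.21 to 0.47) and CRIM1, a membrane protein that binds bone morphogenetic proteins, by -0.18 (-0.51 to 0.15). MYOF, a membrane repair protein of the ferlin family, differed by -0.08 (-0.41 to 0.24). For the GTPase regulators ASAP1 and DOCK5, at 0.01 and -0.07, adjusted p was 0.986 and 0.843. The further probe sets of ASAP1 lay below 0, at -0.42, -0.31, -0.41 and -0.10, with 0 of them called (adjusted p from 0.216 to 0.802), and the mean of its probe sets differed by -0.25. Those at -0.42 and -0.41 did not overlap. Further probe sets of DOCK5 (-0.72, -0.45 and -0.26), CRIM1 (-0.32) and TGFB2 (-0.45) were also lower without overlap. None of them was called (limma adjusted p from 0.0943 to 0.302), and 27.2% of all genes did not overlap. The other further probe sets of these genes overlapped, with those of TGFB2 at 0.29, 0.10 and 0.16. FOXF2, a mesenchymal forkhead factor (3.51 in DLD-1Δα-Cat, against 3.59 in DLD-1α-Cat), and the RNA-binding protein RBMS3 (4.28 in DLD-1Δα-Cat, against 3.70 in DLD-1α-Cat) lay near the bottom of the scale, where a level cannot be told from background. Over all members, 5 targets and 3 components, WWTR1 narrowly among them, had means below the median of all genes.

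**Figure D3:**
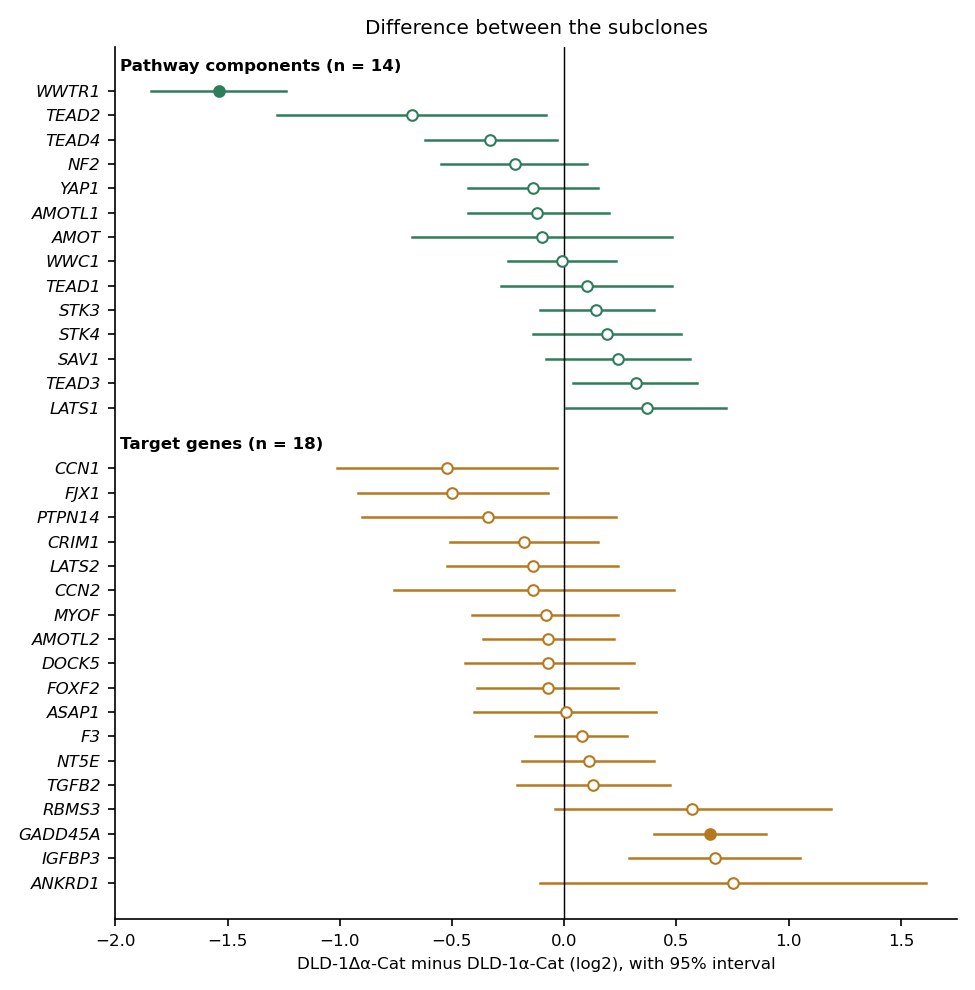
Log2 difference, DLD-1Δα-Cat minus DLD-1α-Cat, with its 95% interval from limma, for 14 components and 18 targets, each sorted from lowest to highest; filled points passed at an adjusted p under 0.05. WWTR1 at -1.54 and GADD45A at 0.65 are the 2 filled points.

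Components and targets were then set side by side, with no test between them. The median difference of the 14 components was -0.0527, and they ranged from -1.54 to 0.37, with 0 higher and 1 lower. For the 18 targets the median was -0.0676 and the lowest and highest values were -0.52 and 0.75, with 1 higher and 0 lower. The median of all genes was -0.0302. At an unadjusted p under 0.05, limma gave 5 components (35.7%, 2 higher and 3 lower) and 4 targets (22.2%, 2 higher and 2 lower), against 20.8% of all genes. The mean log2 level of the 18 targets was 9.60, 9.76 and 9.72 in DLD-1Δα-Cat, against 9.40, 9.81 and 9.73 in DLD-1α-Cat, where the lowest DLD-1α-Cat value is that of replicate 1, the array with the lowest weight (0.431). That of the 14 components was 9.74, 9.87 and 9.86 in DLD-1Δα-Cat, against 9.82, 9.99 and 10.06 in DLD-1α-Cat. The components' mean was lower in DLD-1Δα-Cat in each same-numbered pair, with overlapping groups, and the targets' mean was higher in 1 pair and lower in the others. That components' mean includes WWTR1 (-1.54), whereas their median difference was -0.0527, so it does not show a fall across the list. When AMOTL2, LATS2 and PTPN14 were counted with the components instead, the medians were -0.0976 for components and 0.0071 for targets. Beyond the brightest probe sets, 23 members had 77 further ones, of which 3 were called (3.9%, against 3.38% of all probe sets), the 2 of WWTR1 and the 1 of NT5E. Of the 77, 48 had the sign of the brightest.

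**Figure D4:**
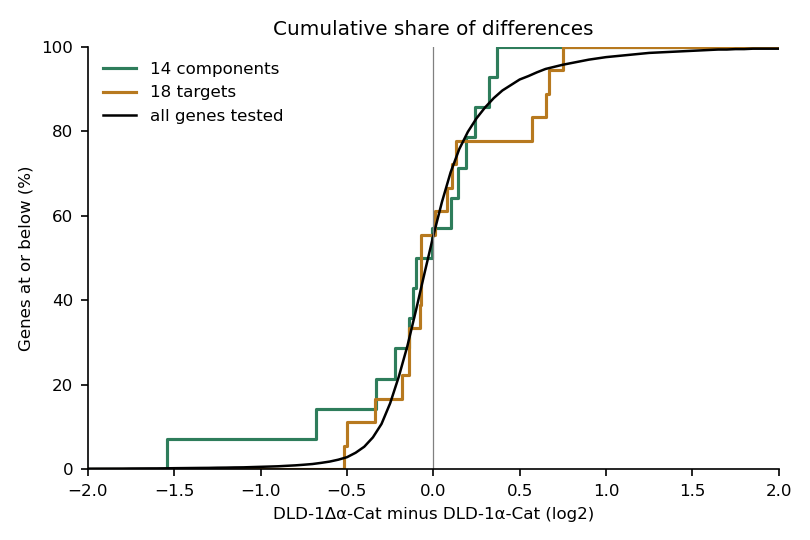
Cumulative share of genes (percent) at or below each difference DLD-1Δα-Cat minus DLD-1α-Cat (log2), for 14 components, 18 targets and all genes tested. The curves cross near 0, and the step of the components at -1.54 is WWTR1.

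A wider circle of 59 further pathway genes, of which 55 had a value, was read in the same way. Of these, 2 rose and 1 fell (5.45%, against 5.52% of all genes), and the fall is CTNNA1, the gene used to check the labels (difference -1.52, adjusted p = 0.000838). Without CTNNA1, 2 of 54 genes were called (3.7%). FRMD6, also called Willin, a FERM-domain protein known as an upstream activator of the kinases, was 10.25, 10.34 and 10.42 in DLD-1Δα-Cat, against 9.74, 9.81 and 9.66 in DLD-1α-Cat. All DLD-1Δα-Cat arrays of FRMD6 were higher (difference 0.60, SE 0.0976, adjusted p = 0.0164), and its second probe set differed by 0.58 (adjusted p = 0.0775). The target signature's receptor kinase AXL, 1 of 3 further genes of that signature, was 7.14, 7.37 and 7.34 in DLD-1Δα-Cat, against 6.68, 6.53 and 6.91 in DLD-1α-Cat (difference 0.58, adjusted p = 0.0472). The second AXL probe set was dim and differed by 0.06 (adjusted p = 0.838), and the mean of both differed by 0.32 (adjusted p = 0.153). AXL passed in 3 of 16 alternatives, and its adjusted p was 0.0565 with the replicate number as a block, 0.0663 after quantile normalization and 0.293 with the β-actin ratio as a covariate. FRMD6 lost its call without replicate 2 or 3 of DLD-1Δα-Cat or replicate 3 of DLD-1α-Cat (differences 0.60, 0.56 and 0.56, adjusted p = 0.0756, 0.0736 and 0.0685). It passed in the other 3 of the 6 runs without an array, and AXL in 0 of them, with adjusted p from 0.06 to 0.171. With the β-actin ratio as a covariate FRMD6 differed by 0.52 (adjusted p = 0.417) and CTNNA1 by -1.56 (adjusted p = 0.0667), so neither passed there. The other lists had no call by limma. These were 8 genes of the kinase module such as MOB1A, 13 inhibitors of the kinases such as AJUBA, 12 nuclear cofactors such as VGLL4 and 6 genes of YAP turnover. At an unadjusted p under 0.05, limma gave 0, 1 (7.69%), 2 (16.7%) and 0 of them, against 20.8% of all genes. For the 13 upstream and junction genes it gave 4 (30.8%), and for the 3 signature genes 1 (33.3%).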

How the data were processed

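RNA of 6 samples was hybridised to Affymetrix arrays with 54675 probe sets. The deposited log2 intensities come from RMA, which the authors ran in Expression Console of Affymetrix (per the submitters' processing notes, without versions). RMA makes the arrays' distributions alike, which hides any shift common to all RNA. Array medians were 6.12 to 6.15, and the number of arrays limits the precision.

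Leaving aside 62 controls, the platform annotation gave 41091 probe sets 1 symbol, 1801 several and 11721 none. By gene ID 41037 of the first matched RefSeq (GRCh38.p14, used for names). The brightest probe set stood for each of 19775 genes, with no filter on dim genes. Both subclones were fitted in 1 model with limma 3.58.1 in R 4.3.3 (lmFit, eBayes, two-sided), adjusted by Benjamini-Hochberg over all genes. The fit was also run on simulated arrays, drawn independently of each other. That run held neither the possible pairing described below nor an array of low weight, so it does not cover them. Promoter letters came from the RefSeq table.

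The titles number the replicates alike in both subclones. Arrays with the same number deviated together (correlations 0.225, 0.376 and 0.122, each above 0.1). The numbers were thus taken as a possible pairing, from the data and not from a stated design. The main fit, which gave the calls, left this pairing out and called 5.52% of all genes. With the replicate number as a block, an alternative, 7.39% were called. Others were normalization, centring, dim probe sets, probe set choice, variance model, array weights, the β-actin ratio, list membership and leaving out each array.

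Members and lists were chosen with earlier results of these data known. By the rule for named genes, all arrays are given for called members, the coactivators, TEAD factors, LATS kinases, CCN1, CCN2, ANKRD1 and the 3 most different uncalled members above the median brightness (TEAD2, CCN1 and FJX1), and the called genes of the wider lists are named. Further probe sets and IGFBP3 were singled out after their values were seen. Some listed genes are not reported here, and MPP5 is an older symbol of PALS1.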

Additional observations from a re-analysis of the deposited data

How the results depend on the processing

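Of 507 values of the 32 members under 16 alternatives, 468 kept their direction and side of the threshold. That count says little about robustness, since 30 members were not called to begin with. The replicate block, the variance model and the fit of every probe set leave a difference unchanged, so its direction was fixed there. WWTR1 passed in 15 of the 16 and GADD45A in 11. The β-actin ratio separated the subclones, so a fit with it as a covariate cannot tell RNA quality from the subclone difference. That covariate, which also costs a degree of freedom, left 58 higher and 26 lower genes in all, with 0 called members. WWTR1 was at -1.29 in that fit, GADD45A at 0.54 and the component median at 0.0675. There LATS2 (0.0272), DOCK5 (0.19), PTPN14 (0.0742), NF2 (0.0768), AMOTL1 (0.13) and WWC1 (0.0582) turned to above 0, and NT5E (-0.22), TGFB2 (-0.10) and STK3 (-0.0542) to below 0, none of them called. Without moderation there were 67 higher and 48 lower genes, 1 called member and 0 called targets, and GADD45A at 0.65 had an adjusted p of 0.0873. With the replicate number as a block, 2 targets rose, GADD45A and IGFBP3, as they did without dim probe sets (component median 0.0474), with trend and robust eBayes (1150 higher and 564 lower genes in all) and with array weights (549 lower genes). The block changed no other call of a member; AXL lost its call there (adjusted p = 0.0565). ASAP1 (0.0071) turned to -0.00117 by quantile normalization, -0.25 by the mean of its probe sets and -0.063 by array weights; STK3 turned to -0.0225 by the mean, and WWC1 to 0.00804 by quantile normalization. The cause was not tested.

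Leaving out each array gave 323 to 854 higher and 116 to 348 lower genes, 1 to 3 called members and 0 to 2 called targets, all higher. GADD45A lay between 0.59 and 0.72 and WWTR1 between -1.62 and -1.45. The median of components lay between -0.101 and 0.076 (without replicate 1 of DLD-1Δα-Cat). Uncalled members that crossed 0 were WWC1 (-0.0716 to 0.0307), ASAP1 (-0.18 to 0.11), CCN2 (-0.35 to 0.0775), AMOT (-0.27 to 0.17), MYOF (-0.20 to 0.0056), AMOTL2 (-0.14 to 0.0356), DOCK5 (-0.23 to 0.0515), NT5E (-0.00321 to 0.20) and TEAD1 (-0.0386 to 0.22). Detection calls were not used here, so for dim members a level cannot be told from background.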

Other observations

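FOSL1, an AP-1 subunit that works with TEAD factors at many target genes, is named after its values were seen. It was 8.05, 7.94 and 8.66 in DLD-1Δα-Cat, against 9.11, 9.05 and 9.88 in DLD-1α-Cat, without overlap. Its difference of -1.13 (95% interval -1.76 to -0.49) was the deepest among the 12 nuclear cofactors and did not pass limma's test (adjusted p = 0.0593). With the replicate number as a block it passed (adjusted p = 0.00774), and with the β-actin ratio as a covariate it was -0.26 (adjusted p = 0.834). DCHS1, a cadherin of the Fat and Dachsous pair, was 6.75, 6.25 and 6.52 in DLD-1Δα-Cat, against 5.77, 6.20 and 5.46 in DLD-1α-Cat, without overlap and not called (difference 0.69, adjusted p = 0.111).

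The members' arrays shared a pattern within a subclone. Replicate 1 of DLD-1α-Cat held the lowest value of its group for 26 of 32 members (81.2%), against 34.3% of all genes. Replicate 1 of DLD-1Δα-Cat did so for 20 of 32 (62.5%), against 37.1% of all genes. Replicate 1 of DLD-1α-Cat also had the lowest array weight in limma, 0.431. Without it the median of the targets was -0.164.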
